A study of Mus musculus with 37 samples.

Results

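Fully grown oocytes without BAP1 were compared with control oocytes by total RNA sequencing. The 5 libraries described were chosen by their label as fully grown oocytes, out of 37 RNA samples in the series: 2 controls (Bap1 flox/flox) and 3 conditional knockouts (Gdf9-iCre, Bap1 flox/flox). All 5 carry the floxed allele, and the groups differ by the iCre transgene, which the Gdf9 promoter drives in oocytes. The libraries were made with the SMART-Seq Stranded kit, which primes total RNA and so also reads transcripts without a poly(A) tail. Age and strain of the mice, the number of oocytes per library and whether replicates came from different mice are not in the labels, so p-values measure the spread between these libraries, which may be technical. The 5 libraries of MII eggs (2 control, 3 knockout, the same genotypes) serve as the same measurement in cells that have completed the first meiotic division, and share no library with the oocytes. Whether both stages came from the same mice is not in the labels.

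BAP1 is the catalytic subunit of the Polycomb repressive deubiquitinase, which together with an ASXL subunit removes ubiquitin from histone H2A, the mark that the PRC1 ligase writes. Polycomb complexes keep developmental genes silent, and BAP1 is known to restrain the spread of the ubiquitin mark over the genome, so that its loss can lower as well as raise transcription. A fully grown oocyte has stopped most transcription and holds the store of maternal RNA that supports meiosis and the start of development, so its RNA reflects what was made and kept during growth.

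The promoters of 4 genes among those with the largest falls, and of the gene with the largest rise, are shown so that starts with few CpG can be read beside a CpG-rich one. Each is the RefSeq window (GRCm38.p6) from 250 bases before to 50 after the start, written 5′ to 3′ on the gene's strand, with CpG in capitals. The windows lie at chr17:58991326-58991625 (minus strand) for Pdzph1, chr15:10176988-10177287 (plus) for Prlr, chr6:34353896-34354195 (plus) for Akr1b8, chr1:126830583-126830882 (minus) for Nckap5 and chr17:45433658-45433957 (minus) for Cdc5l.
Pdzph1: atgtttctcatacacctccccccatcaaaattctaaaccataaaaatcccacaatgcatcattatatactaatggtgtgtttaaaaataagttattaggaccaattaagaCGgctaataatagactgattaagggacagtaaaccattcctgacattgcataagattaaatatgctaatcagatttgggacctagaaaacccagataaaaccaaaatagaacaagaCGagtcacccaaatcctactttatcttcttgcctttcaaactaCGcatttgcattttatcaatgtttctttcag
Prlr: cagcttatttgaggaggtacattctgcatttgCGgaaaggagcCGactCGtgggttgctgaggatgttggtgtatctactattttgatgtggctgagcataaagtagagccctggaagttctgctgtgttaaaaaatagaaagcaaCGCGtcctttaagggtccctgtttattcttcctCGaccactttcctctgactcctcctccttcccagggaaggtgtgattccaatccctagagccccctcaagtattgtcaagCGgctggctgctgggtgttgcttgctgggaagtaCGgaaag
Akr1b8: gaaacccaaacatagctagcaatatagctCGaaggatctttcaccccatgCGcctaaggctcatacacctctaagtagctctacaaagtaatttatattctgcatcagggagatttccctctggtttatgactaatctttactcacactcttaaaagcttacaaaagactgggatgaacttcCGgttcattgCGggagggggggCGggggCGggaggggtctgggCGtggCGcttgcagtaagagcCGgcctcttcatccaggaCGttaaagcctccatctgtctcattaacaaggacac
Nckap5: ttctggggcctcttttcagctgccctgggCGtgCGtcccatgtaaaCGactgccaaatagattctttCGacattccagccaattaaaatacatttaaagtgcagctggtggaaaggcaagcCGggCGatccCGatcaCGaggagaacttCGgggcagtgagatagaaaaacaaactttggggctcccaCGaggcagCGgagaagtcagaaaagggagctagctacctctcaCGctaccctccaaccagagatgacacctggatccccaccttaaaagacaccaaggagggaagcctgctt
Cdc5l: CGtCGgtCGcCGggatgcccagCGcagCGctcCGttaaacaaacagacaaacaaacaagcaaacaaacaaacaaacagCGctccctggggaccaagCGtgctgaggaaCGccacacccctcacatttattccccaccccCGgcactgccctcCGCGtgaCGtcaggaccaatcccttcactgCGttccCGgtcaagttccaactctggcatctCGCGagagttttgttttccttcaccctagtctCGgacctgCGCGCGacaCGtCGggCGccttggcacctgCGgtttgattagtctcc
The window of Pdzph1 holds 3 CpG, that of Prlr 8, that of Akr1b8 10, that of Nckap5 12 and that of Cdc5l 26. The ratio of observed to expected CpG was 0.38 for Pdzph1, 0.44 for Prlr, 0.56 for Akr1b8, 0.58 for Nckap5 and 1.06 for Cdc5l. Prlr has 3 annotated windows and Nckap5 has 2, and for each the one nearest the annotated 5′ end was taken.

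Over all genes, the promoters of those that fell held less CpG. A window was matched by symbol for 568 genes called lower, 107 called higher and 8179 tested genes in all. The median observed to expected CpG ratio was 0.58 for lower, 0.73 for higher and 0.79 for all tested genes, and a ratio of at least 0.6 was found in 47.9%, 66.4% and 73.9% of them. Of 4 short motifs searched on both strands, TATAAA (the TATA box) was in 11.8% of the windows of lower genes, 11.2% of higher and 7.34% of all. TAAACA (forkhead) was in 13.6%, 8.41% and 8.19%, ATGGCG (YY1) in 8.63%, 10.3% and 16.7%, and TAATTG (homeobox) in 7.22%, 3.74% and 5.16%. These shares describe letters and not bound sites, and none was tested. The groups were not matched for control level, which had a median of 4.94 FPKM for lower and 7.87 for all tested genes. The lower genes include X-linked and autosomal Zfp genes, whose median CpG ratios were 0.47 and 0.49.

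Knockout replicate 1 stood apart from the other 4 libraries. Between 10733 and 11323 genes reached 1 FPKM per library, and the summed FPKM was 300668 to 322935. Knockout replicate 1 was the most distant from the controls, with Spearman correlations across genes of 0.938 and 0.935 against 0.963 to 0.966 for replicates 2 and 3, and it correlated with those at 0.972, while they correlated with each other at 0.991. It also held more processed pseudogene signal, 3.37% of the summed FPKM against 1.46% and 1.49% in controls and 1.72% and 1.81% in knockout replicates 2 and 3. Several mitochondrial tRNAs were high in it as well, for example mt-Tg at 478 FPKM against 34.4 and 28.5 in controls and 42.9 and 36.1 in the other knockouts. The part of these differences in other results was not tested. The 8 oocyte markers summed to 2581 to 2702 FPKM in controls and 2420 to 2625 in knockouts, and none was called. The 7 blood or immune markers stayed below 1 FPKM in every library, 5 of them at 0 in all, and so did the 6 theca or stroma markers. Of 12 granulosa or cumulus markers 10 stayed below 1 FPKM, with Lhcgr and Ptx3 at 0, and the summed level was 9.80 to 10.7 in controls and 4.35 to 5.14 in knockouts. Most of that sum in controls was Cyp19a1, the aromatase of estrogen synthesis. It was at 6.72 and 5.16 FPKM in controls and 1.83, 1.52 and 1.87 in knockouts, and was called lower (limma adjusted p = 0.00486). Its part in other results was not tested. Of the 4 endothelial markers Pecam1 was at 13.2 to 16.8 FPKM in every library, while Cdh5 was at 0 and Kdr at 0.804 and 0.938 FPKM against 0.135, 0.129 and 0.0788.

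Bap1 RNA was reduced but not lost. It was at 16.3 and 29.2 FPKM in the control libraries and at 4.98, 3.76 and 4.49 FPKM in the knockouts (chr14:31251450-31259944, plus strand, mm10). Every knockout was below both controls, although the controls differed from each other more than the knockouts did. The difference was -2.09 ± 0.24 (SE, knockout minus control on the log2(FPKM + 1) scale used throughout, limma, adjusted p = 0.00617). The FPKM is summed over the gene, and the labels do not say which exons the floxed allele removes, so RNA from the remaining exons counts towards it. Without control replicate 2 the adjusted p was 0.057.

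Most of the genes called in the knockout had lower RNA levels. The fit took the 11560 genes that reached 1 FPKM in 2 or more of the 5 libraries. Of them, 809 were lower (7.00%) and 155 higher (1.34%) in the knockout at a Benjamini-Hochberg adjusted p under 0.05 in limma, so 83.9% of the calls were falls. With libraries centred on their medians the calls were 672 lower and 272 higher. The counts rest on the 2 controls: without control replicate 1 there were 37 lower and 4 higher genes, and without control replicate 2 there were 15 and 0. Without 1 knockout library there were 447 to 974 lower and 41 to 277 higher genes. The falls were also larger: 324 lower genes and 18 higher genes changed at least 2-fold on the log2(FPKM + 1) scale, and the medians were -0.91 and 0.59. Groups did not overlap for any called gene, and neither did they for 5372 of the 11560 tested genes (46.5%), so separation alone is common with 2 against 3 libraries. For 253 of the lower genes no knockout library reached 1 FPKM, and for 19 of the higher genes no control did. Such genes passed the filter through 1 group only. Some classes of short or pseudogene RNA lay above 0 without many calls: the median difference was 0.46 over 787 processed pseudogenes (15 lower, 4 higher), 0.72 over 28 snRNA genes (1 lower, 0 higher) and 0.61 over 22 mitochondrial tRNA genes (0 lower, 1 higher), while it was -0.01 over all tested genes. Processed pseudogenes had a median of 4.70 FPKM in knockout replicate 1. That median was 2.33 and 2.37 FPKM in knockout replicates 2 and 3, and 2.16 and 1.99 in controls. Several mitochondrial tRNAs were also highest in knockout replicate 1, so these median differences rest in part on that library. In bulk RNA, fewer cells with a transcript and less of it per cell cannot be told apart.

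**Figure D1:**
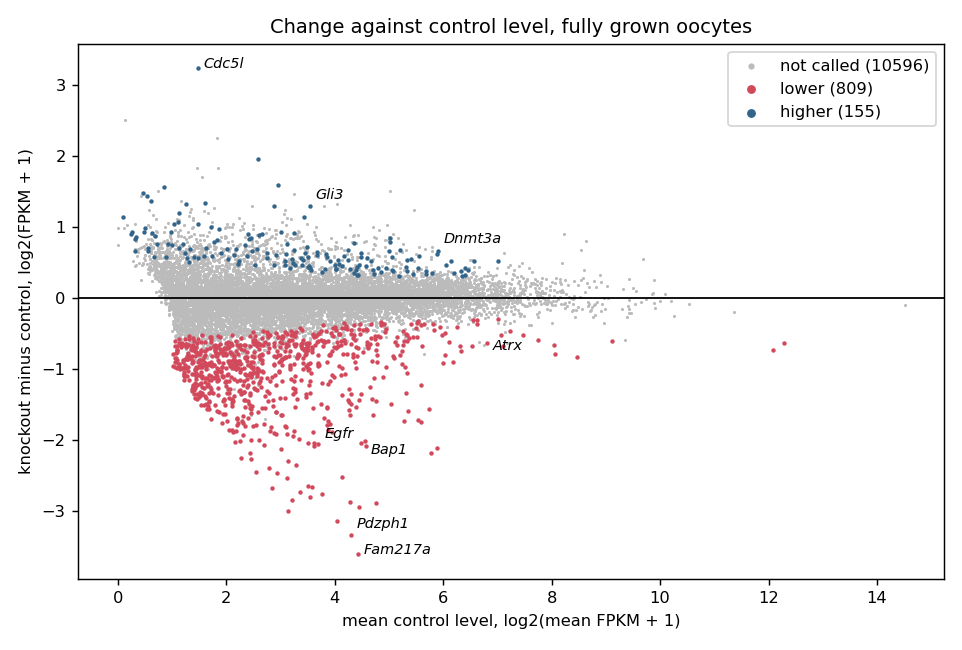
Each point is a tested gene, with its mean control level, log2(mean FPKM + 1), on the x axis and the knockout minus control difference, log2(FPKM + 1), on the y axis. Red points are the 809 lower genes, blue the 155 higher and grey the rest; falls reach -3.62 and the largest rise is 3.24.

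The share of falls was highest at 2 to 5 FPKM in controls. Genes with a control mean below 1 FPKM could pass the filter only with a knockout library at 1 FPKM or more. The 0 of 445 genes lower and the 4.72% higher there were therefore shaped by the filter. The share lower was 8.36% at 1 to 2 FPKM and 11.1% at 2 to 5 FPKM. It was 8.09% at 5 to 10 FPKM and 6.18% at 10 to 30 FPKM. From there it fell to 2.97% at 30 to 100 FPKM and 2.82% above 100 FPKM. The median control level was 4.94 FPKM for lower genes, 8.49 for higher genes and 7.87 for all tested genes. On the scale used, the size of a fall is limited by the control level, which shows as the slanted lower edge of the cloud in the plot of change against control level.

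The 12 largest falls took transcripts that controls held at 5.82 to 21.4 FPKM to 1.38 FPKM or less. Fam217a was at 19.9 and 21.4 FPKM in controls and at 0.677, 0.592 and 1.04 in knockouts, a difference of -3.62 ± 0.14. Pdzph1 was at 17.6 and 19.8 FPKM against 0.625, 1.38 and 0.859, a difference of -3.35 ± 0.18. Both groups stood far apart in each case, with the lowest control more than 10-fold above the highest knockout. Akr1b8, an aldo-keto reductase, was at 13.3 and 11.9 FPKM against 1.16, 0.966 and 0.842, a difference of -2.77 ± 0.13.

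Prlr, Mrc1 and Lcp2 are better known from endocrine and immune cells. Of the lists that hold Prlr and Lcp2, 1 of 20 cytokine receptor and JAK-STAT genes (Prlr, 5.00%) and 1 of 7 antigen receptor signalling genes (Lcp2) were lower, against 7.00% of all tested genes. Prlr, the prolactin receptor, was at 7.80 and 8.82 FPKM in controls and at 0.113, 0.581 and 0.230 in knockouts (-2.85 ± 0.18). Mrc1, the macrophage mannose receptor, was at 5.97 and 6.46 FPKM against 0.0989, 0.135 and 0.154 (-2.68 ± 0.12). Lcp2, an adaptor of antigen receptor signalling, was at 10.1 and 7.48 FPKM against 0.556, 1.00 and 1.18 (-2.36 ± 0.20). Leukocyte markers were near 0 in every library, as given above, and Ptprc, the pan-leukocyte phosphatase, was at 0 in all 5. The summed granulosa or cumulus markers were lower in knockouts, as also given above. Whether RNA of other cells had a part in these falls was not tested. Raet1d, of the family of NKG2D ligands, was at 7.03 and 6.28 FPKM against 0.523, 0.452 and 0.185, with 55.8% of its exonic words of 50 bases shared with other genes, so its own level is uncertain.

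The remaining large falls were in genes of adhesion, lipid use and unknown role. Cntn6, a contactin of neuronal adhesion, was at 6.06 and 5.82 FPKM against 0.320, 0.326 and 0.287 (-2.40 ± 0.11). Lpl, lipoprotein lipase, was at 7.70 and 7.91 FPKM against 0.814, 0.763 and 0.786 (-2.30 ± 0.11). Nckap5 was at 8.96 and 9.49 FPKM against 0.284, 0.628 and 0.724, Csrnp3 at 6.33 and 8.99 against 0.504, 0.402 and 0.496, and Thegl at 6.77 and 7.39 against 0.788, 1.31 and 0.527. Adjusted p-values of these 12 lay between 0.000563 and 0.00293 in limma. Prlr, Nckap5, Mrc1, Csrnp3, Raet1d, Cntn6 and Lpl had every knockout library below 1 FPKM, so they passed the filter only through the controls. Without control replicate 2, which leaves 1 control, 2 of the 12 were called, in part because genes present only in controls then miss the filter.

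Several better known genes fell as well and are given because their values were seen. Egfr, the epidermal growth factor receptor, was at 22.9 and 22.6 FPKM in controls and at 4.90, 4.81 and 4.80 in knockouts (-2.02 ± 0.08, limma adjusted p = 0.000563). Cd36, a fatty acid transporter, was at 12.5 and 14.5 FPKM against 3.19, 3.15 and 3.16 (-1.80 ± 0.11). Aldh1a2, which makes retinoic acid, was at 13.5 and 14.0 FPKM against 3.47, 3.78 and 3.04 (-1.74 ± 0.11). Spread within each group was small for all 3, and the groups were separated by at least 2-fold. Cdh2, N-cadherin, was at 5.44 and 4.69 FPKM against 0.554, 0.453 and 0.532, and Dppa4, a chromatin factor of pluripotent cells, at 4.83 and 5.24 against 0.835, 0.842 and 1.26.

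**Figure D2:**
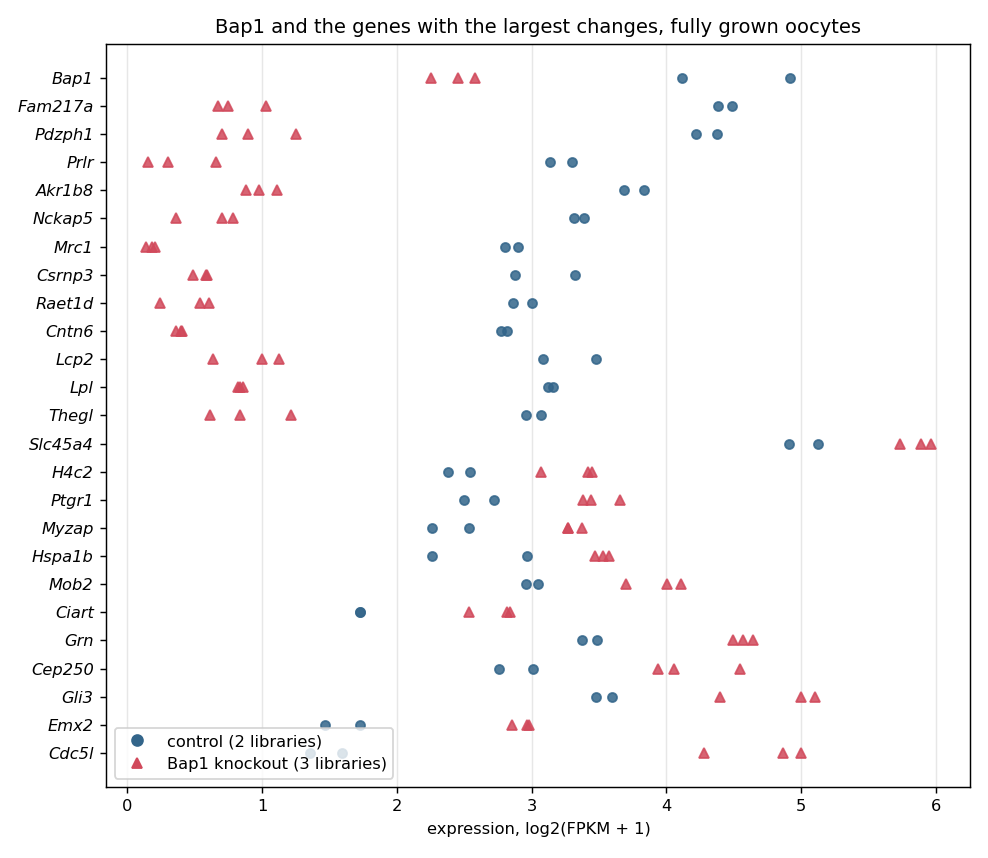
Expression of Bap1 and of the 12 genes with the largest falls and the 12 with the largest rises in each library, as log2(FPKM + 1) on the x axis. Blue circles are the 2 controls and red triangles the 3 knockouts; the groups are separate for every gene shown.

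Cdc5l rose far more than any other gene named by the same rule. This component of the spliceosomal PRP19 complex was at 2.02 and 1.56 FPKM in controls and at 31.0, 18.5 and 28.1 in knockouts, a difference of 3.24 ± 0.22 (limma adjusted p = 0.00151). Other genes share 36.6% of its exonic words of 50 bases, so part of the value may be split between copies. The next rises were much smaller. Emx2, a homeobox regulator, was at 1.77 and 2.31 FPKM against 6.21, 6.82 and 6.90 (1.33 ± 0.12), and Gli3, a transcription factor of Hedgehog signalling, at 10.1 and 11.1 FPKM against 33.4, 31.0 and 20.1 (1.30 ± 0.21).

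The other genes with the largest rises have varied roles. Cep250, a centrosomal linker, was at 7.05 and 5.75 FPKM against 22.4, 14.3 and 15.7, and Grn, progranulin, at 10.2 and 9.37 against 23.9, 21.5 and 22.7. Slc45a4, a transporter, was at 29.1 and 33.9 FPKM against 52.2, 58.3 and 61.4. Ciart, a circadian repressor, was at 2.31 in both controls and at 4.78, 6.06 and 6.15 in knockouts. Mob2, Myzap and Ptgr1 rose by 0.93, 0.91 and 0.88. Hspa1b, a heat shock protein of the HSP70 family, and H4c2, a replication-dependent histone, rose by 0.91 and 0.85, but 62.3% and 75.9% of their exonic words are shared with other genes. The Hspa1b call was at the threshold (limma adjusted p = 0.0493): the controls were at 6.83 and 3.80 FPKM and the knockouts at 10.9, 10.1 and 10.6, and without control replicate 2 the difference was 0.56 (adjusted p = 0.14). It was also lost with a pseudocount of 0.1 (adjusted p = 0.0524) and without a filter (adjusted p = 0.143). None of these 12 was called without control replicate 2, and 3 were called without control replicate 1.

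Falls were more frequent on the X chromosome than on any autosome. Of 391 X-linked genes tested, 62 were lower (15.9%) and 3 higher (0.767%). Shares lower on the autosomes ran from 4.66% on chromosome 17 to 10.6% on chromosome 6. The X-linked falls had a median of -0.88 and ranged from -2.05 to -0.51. Among protein-coding genes the X share lower was 24.6% at control levels of 1 to 5 FPKM, 17.5% at 5 to 30 FPKM and 10.9% above 30 FPKM, against 9.82%, 5.57% and 2.22% for genes that were neither X-linked nor numbered Zfp genes. The X share was higher at each level, which is a description with no test. Without control replicate 2, 0 of 358 X-linked genes and 0 of 198 Zfp genes were lower, of 15 lower genes in all. Without control replicate 1 the X share was 1.11% (0.334% of all genes), and with the replicate block 1.53% (0.848%).

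**Figure D3:**
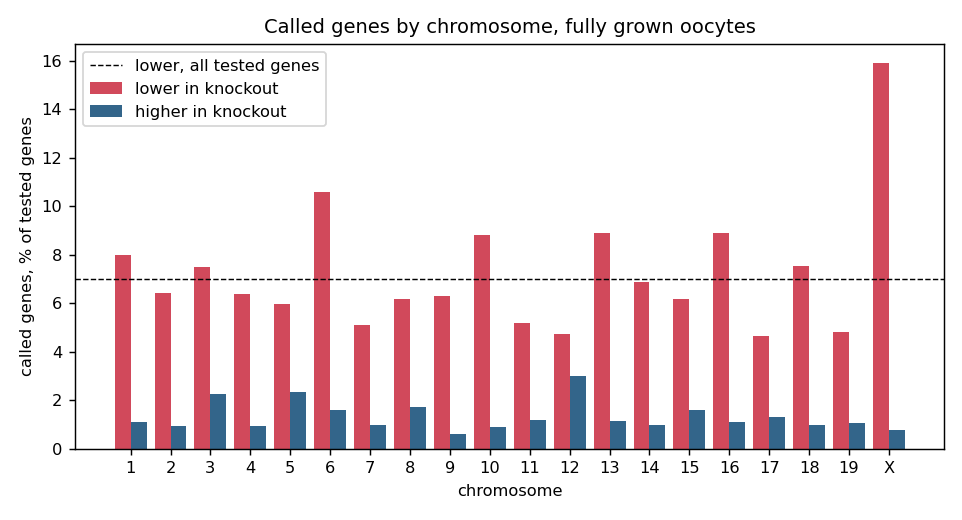
Bars give the percentage of tested genes of each chromosome called lower (red) or higher (blue) in the knockout, and the dashed line marks the 7.00% lower over all tested genes. The X chromosome stands at 15.9% lower, above every autosome.

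The X-linked genes that fell include widely used chromatin and housekeeping genes, given here after their values were seen. Atrx, a chromatin remodeller, was at 112 and 111 FPKM in controls and at 70.5, 72.4 and 71.7 in knockouts (-0.63 ± 0.06, limma adjusted p = 0.00331). Stag2, a cohesin subunit, was at 19.9 and 21.1 FPKM against 12.5, 12.5 and 11.6. Med12, a Mediator subunit, was at 11.9 in both controls and at 8.08, 7.93 and 8.06 in knockouts. Msl3, a subunit of a histone acetyltransferase complex, was at 20.4 and 18.2 FPKM against 11.7, 10.6 and 9.80, and Fancb, a Fanconi anemia gene, at 4.53 and 4.09 against 1.21, 1.31 and 1.27.

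Lower genes also lay beside each other. In the order of tested genes along the chromosomes, 1483 were next to a lower gene and 17.3% of them were lower themselves, against 7.00% of all genes in this order. The longest runs without a gene that was not lower held 11 genes each. One lies on the X chromosome (chrX:106187100-112127326, mm10), from Pgk1, phosphoglycerate kinase, to Tex16. In it Brwd3 was at 12.4 and 14.6 FPKM against 4.04, 3.66 and 4.09, Hmgn5, a nucleosome-binding protein, at 11.3 and 12.4 against 2.41, 1.93 and 1.97, and Taf9b, of the general transcription machinery, at 42.5 and 36.3 against 23.8, 28.7 and 24.4. The other run (chr6:130483189-131182379) holds 11 predicted pseudogenes that resemble each other, among them Gm44527 at 57.5 and 49.5 FPKM against 11.9, 9.61 and 11.4, and reads may be split between them. Some neighbours overlap and may share reads, in the X-linked run for example Brwd3 with 2810403D21Rik and Sh3bgrl with Gm6377. Position along the chromosome was not part of the fit, and no test of the runs was made.

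Many numbered zinc finger genes were lower. A large part of this family in the mouse encodes KRAB-type repressors of transposable elements. Of 219 protein-coding Zfp genes tested, 43 were lower (19.6%, against 7.00% of all tested genes) and 1 was higher, Zfp428, at a median of -0.23 over all 219. Blocking on replicate number, the share was 0.913%, against 0.848% of all genes. Without control replicate 1 it was 0.505%, against 0.334%. With no filter on low values it was 7.28%, against 2.31% of all genes. Zfp820 was at 3.64 and 4.49 FPKM in controls and at 0.496, 0.444 and 0.407 in knockouts (-1.80 ± 0.13), and Zfp677 at 1.94 and 2.27 against 0.144, 0.0497 and 0.116 (-1.49 ± 0.13). Zfp820 and Zfp677 passed the filter only through the controls, so the filter has a part in the share of 19.6%. Zfp978 was at 18.7 FPKM in both controls and at 5.64, 6.27 and 6.00 in knockouts, and Zfp984 at 5.48 and 5.73 against 1.21, 1.53 and 1.92, with 77.4% and 54.5% of their exonic words shared with other genes. By control level the share lower was 21.5%, 18.8% and 17.4% in the 3 ranges given for the X chromosome. Of 431 long intergenic RNAs 76 were lower (17.6%) and 2 higher, and the block left 3.71% lower.

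The deubiquitinase and Polycomb genes themselves mostly showed no call. Over all tested genes 7.00% were lower and 1.34% higher, so the absence of calls in lists this short says little. Of 11 genes of the PR-DUB list, Bap1 and Asxl3 were lower. Asxl3, one of the 3 ASXL partners, was near the detection limit, at 1.27 and 1.61 FPKM against 0.386, 0.447 and 0.418 (-0.78 ± 0.13, limma adjusted p = 0.0174). Asxl1, the most abundant partner, was at 50.3 and 51.9 FPKM against 64.8, 54.5 and 56.5, and Asxl2 at 6.14 and 3.61 against 6.47, 5.13 and 5.98. None of 24 PRC1 genes tested was called in either direction, with a median of 0.06 and a range of -0.50 to 0.26. Of 11 PRC2 genes 1 was lower, Phf19, an accessory subunit, at 1.88 and 1.92 FPKM against 0.764, 0.638 and 0.847, while the catalytic Ezh2 was at 158 and 153 FPKM against 167, 166 and 167. Asxl3 and Phf19 passed the filter only through the controls. Both calls were lost without a filter (limma adjusted p = 0.0614 and 0.0796) and without knockout replicate 2 or 3. None of 12 other H2A and H2B deubiquitinases and none of 21 enzymes that act on H3K4 or H3K27 was called. Of 12 DNA methylation genes 1 was higher: Dnmt3a, the de novo methyltransferase of the oocyte, was at 65.1 and 53.5 FPKM against 104, 88.5 and 91.5 (0.67 ± 0.11, limma adjusted p = 0.0195). That call was lost in the fit shared with the other stages (adjusted p = 0.177), without a filter (0.0756), without either control (0.0932 and 0.175) and without knockout replicate 2 or 3 (0.0501 and 0.0656).

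Genes that make and equip the egg were largely without calls. Many are abundant, and over all tested genes above 100 FPKM in controls the share lower was 2.82%, against 7.00% at all levels. None of 14 zona pellucida and oocyte-secreted genes was called, and 10 had a difference below 0 and 4 above. Gdf9, an oocyte growth factor, was at 1096 and 1077 FPKM against 1151, 1179 and 1069. Zp2, of the same list, was at 448 and 548 FPKM against 375, 422 and 364. Of 12 genes of the subcortical maternal complex 1 was lower, Nlrp9a, at 97.4 and 98.6 FPKM against 79.9, 79.4 and 76.3, and 11 of the 12 had a difference below 0. None of 18 translational control genes, 26 deadenylation and decay genes or 12 calcium and junction genes was called. None of 27 homologous recombination and DNA damage genes, 10 p53 targets or 25 genes of the unfolded protein and redox stress list was called. That list holds no cytosolic heat shock genes, and Hspa1b (above), Hspa1a and Hspb1 were called higher. Hspa1a and Hspb1 are given because their values were seen, and heat shock genes were not counted as a group. Hspa1a was at 1.47 and 0.884 FPKM against 5.60, 3.05 and 3.50, and Hspb1 at 1.09 and 1.22 against 2.73, 3.24 and 4.84, with 66.3% and 50.1% of their words shared.

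Single regulators of oocyte and meiotic programmes fell, at shares that can be read against the 7.00% of all tested genes. Of 21 oocyte transcription factors 3 were lower (14.3%). Obox7, an oocyte homeobox gene, was at 44.1 and 46.8 FPKM against 18.3, 10.9 and 11.0 (-1.73 ± 0.22), with 21.1% of its words shared with relatives. Sohlh2, a factor of early oocyte growth, was at 2.52 and 2.30 FPKM against 0.390, 0.573 and 0.735, and passed the filter only through the controls. Nr5a2, a nuclear receptor, was at 17.8 and 16.7 FPKM against 12.3, 13.4 and 12.2. Ccnb3, the cyclin B3 of anaphase onset, was the 1 lower gene of 28 (3.57%) in meiotic arrest and resumption, at 15.3 and 17.6 FPKM against 11.2, 10.6 and 9.52. Smc1b, a meiotic cohesin, was the 1 lower gene of 27 (3.70%) in meiotic chromosomes and spindle, at 7.96 and 9.30 FPKM against 5.38, 5.63 and 5.91. The Nr5a2 and Smc1b calls were lost with libraries centred on their medians (limma adjusted p = 0.0714 and 0.0639). They were also lost in the fit shared with the other stages (limma adjusted p = 0.104 and 0.141). Of 7 genes expressed at the 2-cell stage 2 were lower, Tcstv1 at 21.9 and 25.1 FPKM against 13.5, 14.4 and 13.9 and Sp110 at 123 and 144 FPKM against 94.5, 91.0 and 92.5. The Ccnb3 and Sp110 calls were lost without a filter (limma adjusted p = 0.0630 and 0.0616) and without knockout replicate 2 or 3.

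Developmental regulators, the classic Polycomb targets, moved both ways. Of 280 protein-coding genes chosen by symbol family, 52 were tested, 8 were lower (15.4%, against 7.00% of all tested genes) and 5 higher (9.62%, against 1.34%). Gcm2 was at 4.91 and 3.93 FPKM against 0.5999, 1.52 and 0.534, and Hoxa7, a homeobox gene, at 10.4 and 9.94 against 4.70, 4.55 and 5.04. Gata3 was at 1.82 and 2.07 FPKM against 0.155, 0.297 and 0.232, and Fgf10, a growth factor, at 1.60 and 1.61 against 0.143, 0.0892 and 0.0482. Besides Gli3 and Emx2, Id2, an inhibitor of basic helix-loop-helix factors, was higher at 2.40, 2.77 and 3.81 FPKM against 0.537 and 0.526 in controls. Id2 passed the filter only through the knockouts, and Gata3 and Fgf10 only through the controls. The filter therefore has a part in the shares of 15.4% and 9.62%. Of 26 imprinted genes that depend on H3K27me3 only 2 passed the filter, and Bbx was lower, at 1.61 and 1.82 FPKM against 0.589, 0.708 and 0.497. Bbx passed the filter only through the controls, and its call was lost without a filter (limma adjusted p = 0.0762). Of 20 canonical imprinted genes tested 1 was lower, Plagl1, at 4.86 and 5.92 FPKM against 3.25, 3.04 and 2.83.

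**Figure D4:**
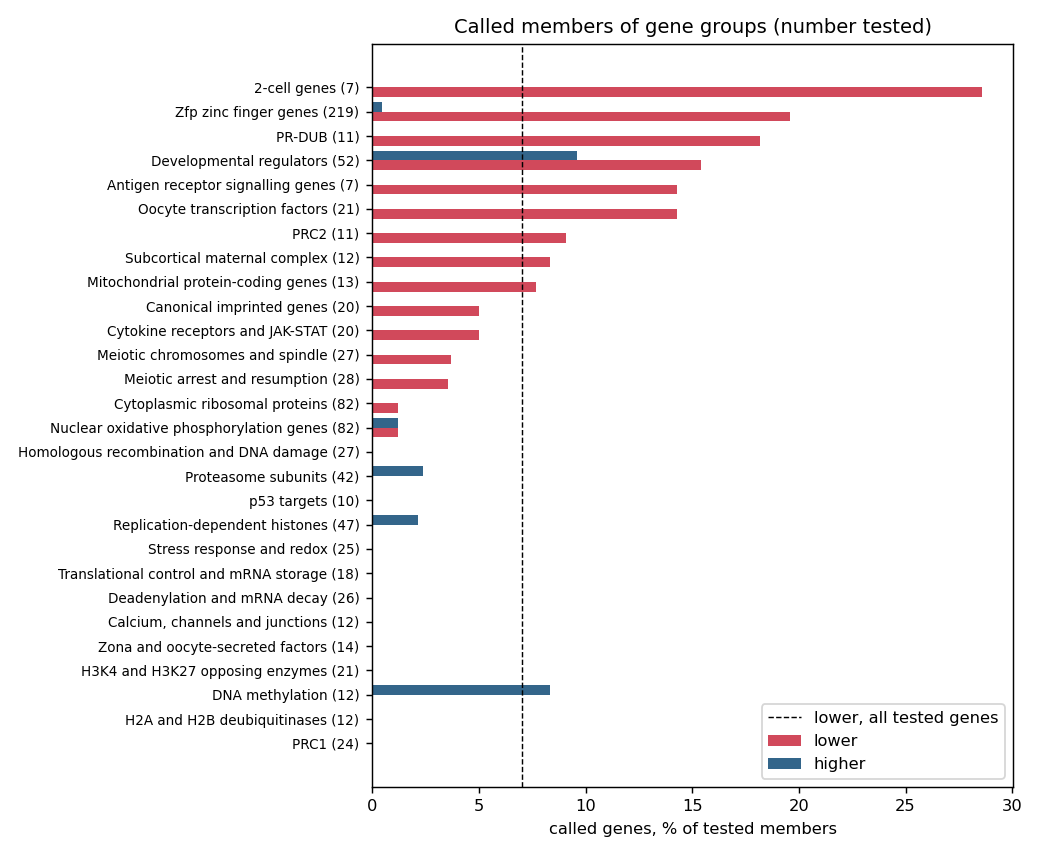
Bars give the percentage of tested members called lower (red) or higher (blue) for each gene group with at least 5 tested members, the number tested in parentheses. The dashed line is the 7.00% lower over all tested genes; the numbered Zfp genes stand at 19.6% and PRC1 at 0.

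Ribosomal, proteasome and nuclear respiratory genes had few calls. Over all tested genes 7.00% were lower and 1.34% higher. Of 82 ribosomal protein genes 1 was lower (1.22%), Rps12, and of 42 proteasome genes 1 was higher (2.38%), Psmd9. The Psmd9 call was at the threshold (limma adjusted p = 0.0496) and was lost without a filter (limma adjusted p = 0.112). Of 82 nuclear genes of oxidative phosphorylation Cox6a2 was lower and Ndufa4l2 higher. In the mitochondrial genome, mt-Cytb was at 540 and 561 FPKM against 321, 349 and 423 (-0.60 ± 0.13), the 1 call among 13 protein-coding genes. That call was lost with libraries centred on their medians (limma adjusted p = 0.0705) and without a filter (limma adjusted p = 0.134). Both mitochondrial ribosomal RNAs were lower: mt-Rnr1 was at 4864 and 5165 FPKM against 3161, 3163 and 3362 (-0.64 ± 0.11), and mt-Rnr2 at 4173 and 4496 against 2394, 2854 and 2590 (-0.73 ± 0.13). The tRNA mt-Tr was higher, at 5.88 and 4.06 FPKM against 42.4, 14.2 and 17.5, highest in knockout replicate 1, with a call at the threshold (limma adjusted p = 0.0493). Of 47 replication-dependent histone genes tested H4c2 was the only one called.

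The same genes were followed in MII eggs. There, 890 genes were lower (7.84%) and 474 higher (4.17%) of 11357 tested. Of the genes lower in fully grown oocytes, 767 were tested in eggs, 758 had a negative difference and 560 were called lower, with 0 called higher. Those 560 are 69.2% of the oocyte list and 62.9% of the egg list. Of the genes higher in oocytes, 149 were tested, 138 had a positive difference and 77 were called higher, which is 49.7% of the oocyte list and 16.2% of the egg list. The median difference of the lower genes was -0.91 in oocytes and -0.80 in eggs, and that of the higher genes 0.58 and 0.43.

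**Figure D5:**
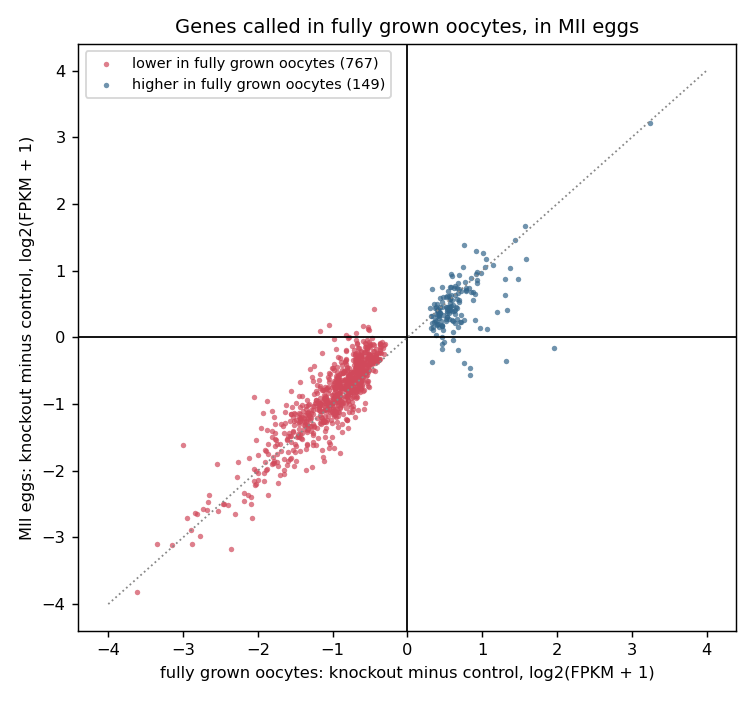
Each point is a gene called in fully grown oocytes and tested in MII eggs, with the knockout minus control difference, log2(FPKM + 1), in oocytes on the x axis and in eggs on the y axis. Red points are the 767 lower and blue the 149 higher genes; the dotted line marks equal differences.

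No gene showed a difference between the knockout effects of the 2 stages that passed the test. In limma the interaction gave 0 calls among 12016 genes (0.00%), a smallest adjusted p of 0.231 and 1080 genes below 0.05 before adjustment, so differences between the stages were not detectable rather than absent. All 12 of the largest falls and 7 of the 12 largest rises were also called in eggs. Cdc5l was at 1.61 and 2.71 FPKM in control eggs and at 30.7, 25.1 and 27.7 in knockout eggs. Dnmt3a had a difference of -0.19 in eggs (limma adjusted p = 0.71) and Emx2 one of 0.41 (adjusted p = 0.58), so neither was called there, and their interaction was not called either. Of the 62 X-linked lower genes 57 were tested in eggs, all 57 with a negative difference and 42 called, and of the 43 lower Zfp genes 42 were tested, all 42 negative and 32 called. Shares called were close to that of all lower genes tested in eggs, of which 758 of 767 were negative and 560 called.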

How the data were processed

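Total RNA libraries were sequenced and the authors deposited FPKM, which normalises for length and library size (the column headers end in rpkm), for 55401 genes. The submitters' processing notes name Trim Galore 0.6.6, STAR 2.7.9, StringTie 2.1.7 and mm10, with no further settings. Depth is unknown, since FPKM holds no read number, so no counting intervals are given. Whether counting used the strand is not given in the sources used here, so overlapping and antisense genes are uncertain. Groups and replicate numbers come from sample titles. Symbols and positions come from GENCODE M21, which holds 55141 of the identifiers.

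Values were analysed as log2(FPKM + 1), which understates changes of low genes, for genes that reached 1 FPKM in 2 or more libraries, with limma 3.58.1 in R 4.3.3 (eBayes with trend, Benjamini-Hochberg, threshold 0.05), fitted on this stage alone. The method was tested on simulated data. The genes named are Bap1, the 12 largest falls and 12 largest rises among called genes without overlap whose higher group averaged 5 FPKM or more (predicted, clone-named, pseudogene and small RNA models left out), up to 4 called members of each list, and up to 3 of its most abundant members; others were added after their values were seen. Members, lists and motifs were chosen with earlier results of these data known. Alternatives were another pseudocount, other filters and scalings, a shared fit, a replicate block, a 2-fold limit and leaving out each library.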

Additional observations from a re-analysis of the deposited data

How the results depend on the processing

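Numbers of calls depended on the libraries and on the filter. Leaving out 1 library moved the lower genes (809) between 15 and 974 and the higher genes (155) between 0 and 277. The lowest counts came without control replicate 2 (15 lower, 0 higher) and control replicate 1 (37 and 4), where 1 control remains and is assumed to vary like the knockouts. Without knockout replicate 1, the library apart from the others, 974 were lower and 277 higher, without replicate 2 447 and 41, and without replicate 3 459 and 46. A mean of at least 5 FPKM gave 245 lower and 63 higher, and a 2-fold limit 324 and 18. No filter gave 626 lower and 51 higher, TPM over protein-coding genes 923 and 268, and centring on library medians 672 and 272. Centring moved the median of all tested genes from -0.01 to 0.05. A replicate block left 98 lower and 7 higher genes; deviations of same-numbered libraries correlated at 0.108 and 0.101 in 2 pairs, and the labels do not say that numbers pair libraries. The interaction with MII eggs gave 1 gene with a pseudocount of 0.1 and 0 to 3 without 1 library. For 49 named genes, whose separate groups largely fix the direction, 479 of 565 recomputed values outside the block and the left-out controls kept their call. With the replicate block 16 of the 49 kept it. When 1 control was left out, most of the named genes still tested lost it. The X-linked share lower was 18.8% without knockout replicate 1 (8.57% of all genes), 12.5% at a mean of at least 5 FPKM (3.50%), 13.6% with centring (5.81%), 9.79% and 11.1% without knockout replicates 2 and 3 (3.91% and 4.01%), and 4.09% with no filter (2.31%). Depth is unknown and 2 controls limit the precision.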
